A study of Mus musculus with 40 samples.

Results

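The gastrocnemius and the quadriceps of 10 mice on a low fat diet (LFD) were compared within each mouse. The 20 arrays are those labelled low fat diet at week 8, out of 40 in the series, with 10 gastrocnemius and 10 quadriceps arrays that were paired by the mouse number in the sample titles. All mice were male, of the strain the labels spell C56BL/6J. They ate a run-in low fat diet for 3 weeks from 9 weeks of age and the LFD for another 8 weeks. They were thus 20 weeks old at dissection, before which, the paper states, they were fasted and anesthetized. The other 20 arrays came from 10 mice that followed the same schedule with a high fat diet (HFD) in the last 8 weeks. Each muscle of each mouse gave 1 array, and the label on RNA extraction names the quadriceps alone for every array.

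Hindlimb muscles differ in their make-up of fibers. Slow fibers carry a slow myosin heavy chain with its own light chains and troponins, contract slowly and tire little, while fast fibers use other isoforms of the same proteins. Muscles of 1 animal also share its feeding state, hormone levels and time of day at dissection, all of which act on muscle transcription. A comparison within mice sets the muscles of 1 animal against each other, so that a level common to both muscles of a mouse drops out of the difference.

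The deposited values were signal intensities on a linear scale, normalized by the authors. The test covered the 6479 of 16475 probe sets whose signal averaged over 20 on the 40 arrays. *Sec24b* (mean 20.03) and *Tom1l2* (20.05) lay just inside this limit, *Lratd2* (19.98) and *Chsy1* (19.97) just outside. The median signal intensity of an array was between 8.8 and 9.4 in the gastrocnemius and between 9.0 and 9.3 in the quadriceps (10 arrays each, which bounds the precision). Skeletal muscle markers marked both muscles. *Acta1*, skeletal muscle actin, ranged from 25309 to 29583 in the gastrocnemius and from 26778 to 30599 in the quadriceps. Its signal was exactly 28868.0 in several arrays of each muscle, which quantile normalization can produce, so its evenness says little on muscle content. None of the 12 markers tested differed at an FDR under 0.05 (all were within 0.11 on the log2 scale).

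The arrays of mouse 141 stood apart. The T-box transcription factor *Tbx1* gave 205.3 in the gastrocnemius of mouse 141 and 242.0 in its quadriceps, against 36.0 to 56.3 in the gastrocnemius and 354.0 to 634.0 in the quadriceps of the other 9 mice. The homeobox gene *Hoxd9* gave 104.8 in the gastrocnemius of mouse 141 and 99.0 in its quadriceps, against 165.9 to 293.8 in the gastrocnemius and 13.0 to 25.2 in the quadriceps of the others. Each of these 4 signals lay between the levels of the muscles of the other mice. Of the 219 genes called below, 149 (68%) differed in the direction of the group in mouse 141, and between 206 and 217 in each of the other mice. The median difference in that direction was 0.08 on the log2 scale in mouse 141 and 0.51 to 0.74 in the others. The deviations of its arrays from the group means correlated at 0.53 between its muscles. What set mouse 141 apart was not tested. The counts of called genes and of genes under the FDR are given with and without it, and most other counts with all mice only.

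Neutrophil genes marked single quadriceps arrays. *S100a9*, a calcium-binding protein of neutrophils, reached 323.5, 1161.8, 1074.4 and 701.0 in quadriceps arrays (mice 148, 153, 155 and 160) and between 5.4 and 8.2 in the other 6, while all gastrocnemius arrays were between 5.2 and 7.9. The summed signal of the 6 tested neutrophil markers ranged from 31.3 to 39.2 in the gastrocnemius and from 31.8 to 2589.7 in the quadriceps (medians 37.0 and 37.3). In whole muscle, fewer cells of a type and less RNA per cell cannot be told apart. None of the 6 passed the paired limma test (5 had an unadjusted p under 0.05, paired and unpaired). *S100a9* had a limma adjusted p of 0.0768, and no fold change is given since 16 of its 20 signals lay under the array median of about 9. The slow myosin heavy chain *Myh7* differed least within mice 160, 141, 153 and 155, by 0.09, 0.37, 0.75 and 0.95 on the log2 scale, and by 1.82 to 7.95 in the other mice. The part of these neutrophil signals in other differences was not tested.

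**Figure D1:**
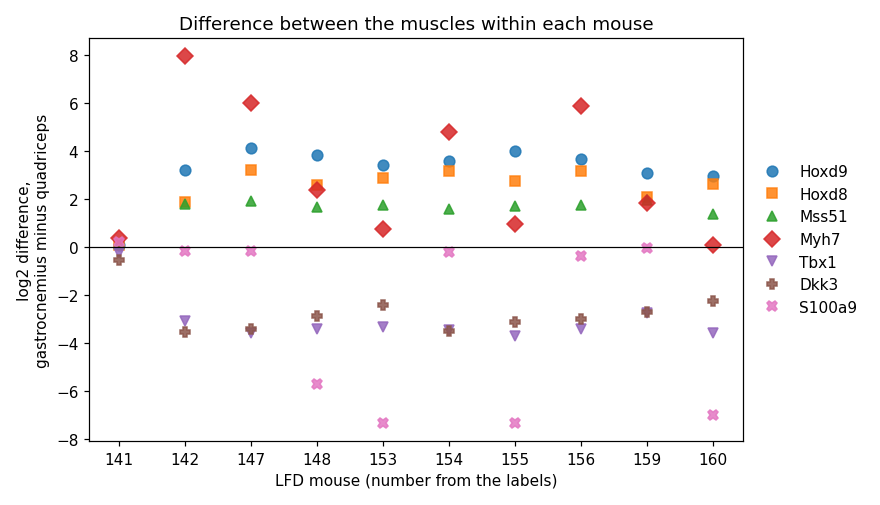
Log2 difference of signal intensity, gastrocnemius minus quadriceps (y axis), within each of the 10 LFD mice (x axis, mouse numbers from the labels) for 7 genes. In mouse 141 the points of all 7 genes lie between -0.56 and 0.37, the points of *Hoxd9* and *Tbx1* lie close together across the other 9 mice, and *S100a9* lies between -7.33 and -5.73 in 4 mice.

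With the mouse as a block, 219 of 6479 genes differed between the muscles by a fold change over 1.3 with an FDR under 0.05 (3.38%). These were 119 genes higher (1.84%) and 100 genes lower (1.54%) in the gastrocnemius, and 209 of the 219 carry a gene symbol. The median fold change of the called genes was 1.46, and 31 genes exceeded 2-fold, 23 of them higher and 8 lower. Of the called genes, 117 had the same direction in 10 of 10 mice and 204 in at least 9. Among all tested genes, 352 (5.43%) had the same direction in 10 of 10 mice. The paired test picks genes that agree across these same mice, so the agreement is no separate support for the calls. Without mouse 141, 269 genes were called, of which 142 were higher and 127 lower. The signal intensities of the muscles did not overlap for 30 genes (0.463%), 13 higher (0.201%) and 17 lower (0.262%) in the gastrocnemius.

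Below the fold change threshold, many small differences passed the test. At an FDR under 0.05 alone, 842 genes differed without mouse 141. With all mice 694 genes (10.7%) differed, 335 higher (5.17%) and 359 lower (5.54%). Of these, 475 had a fold change of 1.3 or less (7.33%), with a median fold change of 1.18 and a lowest of 1.09. In 352 genes (5.43%) all 10 mice had the same direction, 176 each way (2.72%), and 196 of those were among the 475 small differences.

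**Figure D2:**
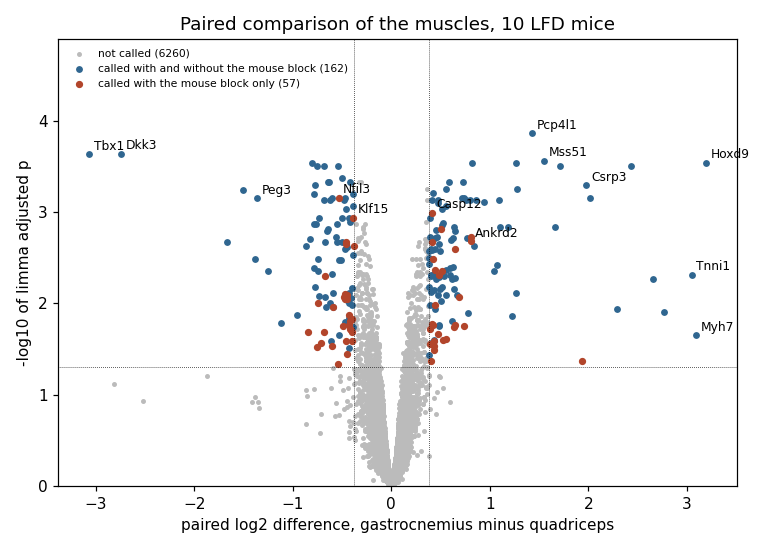
Paired log2 difference, gastrocnemius minus quadriceps (x axis), against the limma adjusted p on a -log10 scale (y axis) for 6479 tested probe sets, with dotted lines at a fold change of 1.3 and an FDR of 0.05. The 57 genes called only with the mouse as a block lie mostly just outside the fold change lines, and *Pcp4l1* has the smallest adjusted p.

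*Pcp4l1*, a small protein related to the calmodulin-binding Purkinje cell protein 4, had the smallest paired adjusted p. Its signal intensity was 24.2, 58.9 and 72.0 (lowest, median and highest) in the gastrocnemius and 10.6, 21.3 and 34.5 in the quadriceps. The ranges overlapped, yet the gastrocnemius was higher in 10 of 10 mice, by 0.60 to 2.17 on the log2 scale (difference 1.43, standard error 0.11, adjusted p = 0.000136). The standard error was 0.52 times that of the unpaired fit.

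*Mss51*, a zinc finger protein of muscle mitochondria, was also higher in every mouse. It had signal intensities of 3180, 3866 and 4541 (lowest, median and highest) in the gastrocnemius and 1089, 1208 and 3156 in the quadriceps. The groups did not overlap, the highest quadriceps signal being that of mouse 141, and the log2 difference was 1.55 (standard error 0.15, adjusted p = 0.000273), or 1.71 without mouse 141. *Egln3*, a prolyl hydroxylase that senses oxygen, was at 78.6, 94.2 and 146.2 in the gastrocnemius and 26.9, 41.3 and 74.5 in the quadriceps, without overlap (1.27, standard error 0.13, adjusted p = 0.000286). *Plekho1*, a regulator of the cytoskeleton and of Akt signaling, was higher by 0.32 to 1.32 in each mouse, again without overlap (0.82, standard error 0.08, adjusted p = 0.000286).

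Genes that the paper counts as important for embryogenesis differed by similar amounts in the mice other than 141. *Hoxd9* had a log2 difference of 3.20 (standard error 0.32, adjusted p = 0.000286) with all mice and of 3.54 (adjusted p = 1.02e-08) without mouse 141. For *Tbx1* these differences were -3.07 (standard error 0.28, adjusted p = 0.000233) and -3.38 (adjusted p = 1.59e-09). In the 9 other mice the difference of *Tbx1* stayed between -3.70 and -2.76. *Hoxd8*, the neighbor of *Hoxd9*, was between 1.86 and 3.22 and *Dkk3*, a secreted member of the Dickkopf family of Wnt modulators, between -3.56 and -2.24 in these mice. The gastrocnemius signals of *Dkk3* lay near the median of the array outside mouse 141 (8.9 to 16.7), so that its size depends on the background.

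Other Hox, T-box and limb homeobox genes differed less. *Hoxc6* was at 12.8, 16.8 and 23.3 (lowest, median and highest) in the gastrocnemius and 24.0, 29.7 and 33.1 in the quadriceps, a log2 difference of -0.80 (standard error 0.08, adjusted p = 0.000286) without overlap. The other 4 Hox genes tested did not pass the test, so that 2 of 7 were higher (28.6%) and 1 was lower (14.3%). Among all tested genes 5.17% were higher and 5.54% lower. Only these 7 of the 33 Hox genes on the array passed the signal filter. *Hoxd10*, which the paper lists among its strongest increases in this comparison, was not among them and was not tested here. Of 30 T-box and limb homeobox regulators on the array 5 passed the signal filter, and 2 of these were called. All 5 were lower at an FDR under 0.05, against 5.54% of all tested genes, namely *Tbx1*, *Irx3*, *Tbx15*, *Eya1* and *Six4*. Beyond *Tbx1*, they had differences of -0.47, -0.35, -0.33 and -0.34, and *Eya1*, a cofactor of homeobox proteins in muscle formation, passed in the paired fit (adjusted p = 0.00884) and not in the unpaired fit (0.0899).

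Slow fiber genes rose together in the gastrocnemius. Of 11 tested genes of slow fiber sarcomeres and calcium handling, 10 (90.9%) were higher at an FDR under 0.05 and none was lower. Among all tested genes 5.17% were higher and 5.54% lower. The median log2 difference of the slow fiber genes was 1.98 against -0.01 over all tested genes. The cardiac calsequestrin *Casq2* was the member that did not pass (0.24, adjusted p = 0.201). *Csrp3*, a muscle LIM protein of the Z-disc, was at 742, 1118 and 3035 (lowest, median and highest) in the gastrocnemius and 83.8, 219 and 1734 in the quadriceps. Its groups overlapped through mice 141 and 148, and it was higher in 10 of 10 mice (1.98, standard error 0.23, adjusted p = 0.000506).

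*Myoz2*, which ties calcineurin to the Z-disc of slow fibers, did not overlap, with 1412, 1783 and 2199 in the gastrocnemius and 135, 663 and 1114 in the quadriceps (1.67, standard error 0.24, adjusted p = 0.00145). *Ankrd2*, a stretch-responsive ankyrin repeat protein of slow fibers, was at 886, 1202 and 2984 in the gastrocnemius and 331, 693 and 1906 in the quadriceps. Its ranges overlapped widely and each mouse had the higher signal in the gastrocnemius, by 0.08 in mouse 141 and 0.30 to 1.48 in the others (0.81, standard error 0.13, adjusted p = 0.00208). In the unpaired fit *Ankrd2* did not pass (adjusted p = 0.114).

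The contractile slow isoforms differed by amounts that varied widely between mice. *Myh7* had signal intensities of 370, 951 and 1488 (lowest, median and highest) in the gastrocnemius and 3.2, 249 and 843 in the quadriceps. The quadriceps of single mice ranged from background to the level of the gastrocnemius, and the paired log2 difference was 3.10 (standard error 0.76, adjusted p = 0.0223). Without mouse 147 or mouse 156 *Myh7* lost its call (highest adjusted p = 0.0546). *Myl3*, a slow light chain, was called with the block alone (1.94, standard error 0.55, adjusted p = 0.0422 against 0.072 unpaired), and lost this call without any 1 of the mice 142, 147, 148, 154, 155, 156 or 159 (up to 0.0898).

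*Tnni1*, *Tnnt1* and *Tnnc1*, the slow troponins, had differences of 3.05, 2.77 and 2.29 (adjusted p of 0.00485, 0.0125 and 0.0116), and *Myl2*, a slow regulatory light chain, of 2.66 (adjusted p = 0.00538). For this family the block narrowed the error little, with standard errors 0.86 to 0.93 times those of the unpaired fit for *Myh7*, *Myl2*, *Myl3*, *Tnni1*, *Tnnt1* and *Tnnc1*. *Csrp3* and *Ankrd2*, at 0.54 and 0.44 times, varied between mice in both muscles together.

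Promoter sequence is shown for the 3 members of the slow fiber list with the smallest paired adjusted p. The windows are those of RefSeq on build GRCm38.p6, from 250 bases before to 50 bases after a start, for *Csrp3* (chr7:48848002-48848301, minus strand, the first of 2 listed starts), *Myoz2* (chr3:123034938-123035237, minus strand) and *Ankrd2* (chr19:42035777-42036076, plus strand). Capitals mark the E-box letters CANNTG, which read the same on both strands and are the core letters that myogenic factors such as MyoD bind.
Csrp3: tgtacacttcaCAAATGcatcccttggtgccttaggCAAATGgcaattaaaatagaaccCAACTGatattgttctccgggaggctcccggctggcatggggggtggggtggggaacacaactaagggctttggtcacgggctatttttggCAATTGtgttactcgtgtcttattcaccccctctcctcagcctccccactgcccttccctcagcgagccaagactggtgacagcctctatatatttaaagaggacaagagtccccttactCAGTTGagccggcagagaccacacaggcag
Myoz2: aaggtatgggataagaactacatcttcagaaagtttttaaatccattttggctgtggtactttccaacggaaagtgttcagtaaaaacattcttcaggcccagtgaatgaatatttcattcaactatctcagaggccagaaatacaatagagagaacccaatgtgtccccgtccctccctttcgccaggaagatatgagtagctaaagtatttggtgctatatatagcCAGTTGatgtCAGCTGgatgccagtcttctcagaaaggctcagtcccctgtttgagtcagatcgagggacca
Ankrd2: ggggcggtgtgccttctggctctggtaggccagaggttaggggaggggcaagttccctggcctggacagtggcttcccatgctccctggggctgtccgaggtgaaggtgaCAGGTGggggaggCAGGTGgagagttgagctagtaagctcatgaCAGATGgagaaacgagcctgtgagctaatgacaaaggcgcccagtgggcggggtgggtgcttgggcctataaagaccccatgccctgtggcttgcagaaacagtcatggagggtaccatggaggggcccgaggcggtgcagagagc
These windows hold 5, 2 and 3 matches. Of the 10 tested slow fiber genes with a listed window, 10 had at least 1 match in the first window listed, against 61.8% of the 5105 tested genes with a window. The letters are common, with a match in 72.3% of all 32851 windows listed. CANNTG was among 4 motifs searched on both strands. Of the other 3, TATAAA was in the first windows of 2 of the 10 slow fiber genes and 7.3% of those of tested genes, the MEF2 motif in 1 of 10 and 0.6%, and CACGTG, which is also a CANNTG, in 0 of 10 and 11.1%. A match of letters is a description and not a site.

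Fast fiber genes were mostly even between the muscles, with a median log2 difference of -0.01. Of 14 tested, 2 were higher (14.3%) and 1 was lower (7.1%), against 5.17% and 5.54% of all tested genes. *Myh4*, the myosin of the fastest fibers, had -0.17 (adjusted p = 0.35) and *Myh1*, that of fast fibers of an intermediate kind, -0.12 (adjusted p = 0.1). *Myh2*, the heavy chain of fast oxidative fibers, was at 11695, 14449 and 15362 (lowest, median and highest) in the gastrocnemius and 5934, 10973 and 12815 in the quadriceps. It was higher in 10 of 10 mice (0.44, standard error 0.09, adjusted p = 0.0116), and fell under the fold change threshold without mouse 142. *Mybph*, myosin-binding protein H, was at 130, 520 and 1006 in the gastrocnemius and 1164, 1310 and 2122 in the quadriceps, without overlap (-1.67, standard error 0.26, adjusted p = 0.00215).

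Some structural and regulatory genes of muscle were higher, and most members of their lists did not pass. In the Z-disc, M-band and stretch list, 6 of 18 were higher (33.3%), 1 was lower (5.6%) and 11 did not pass (median 0.02). Among all tested genes 5.17% were higher and 5.54% lower. The 6 higher members of the list included *Csrp3* and *Ankrd2*, which the slow fiber list holds as well. *Myom3*, an M-band protein of slow and intermediate fibers, had a log2 difference of 1.27 (standard error 0.15, adjusted p = 0.000553), and *Actn2*, the alpha-actinin of Z-discs, of 0.40 (standard error 0.06, adjusted p = 0.00115). The groups of *Actn2* did not overlap, and its fold change of 1.32 fell to 1.3 or less without mouse 142 or 147.

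Of 18 PGC-1, PPAR and mitochondrial regulators 3 were higher (16.7%, against 5.17% of all tested genes), none was lower and 15 did not pass (median -0.03). *Esrrg*, a nuclear receptor of oxidative metabolism, was at 70.9, 104 and 134 (lowest, median and highest) in the gastrocnemius and 43.5, 63.3 and 103 in the quadriceps, higher in 10 of 10 mice (0.64, standard error 0.09, adjusted p = 0.00145). *Ppargc1a*, a coactivator of mitochondrial genes, was higher in 7 of 10 mice (0.61, standard error 0.14, adjusted p = 0.0157). None of 67 subunits of the respiratory chain and ATP synthase passed the paired or the unpaired limma test (5 and 3 had an unadjusted p under 0.05), and all lay between -0.12 and 0.10, with a median of 0.00.

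Called genes with high signals included *Myh2*, *Car3*, *Fhl1*, *Actn2* and *Serpinb6a*, all higher in the gastrocnemius. Signals of different probe sets do not rank the genes by abundance. *Car3*, carbonic anhydrase 3 of slow fibers and fat cells, was at 7675, 8951 and 10371 in the gastrocnemius and 3913, 5305 and 8683 in the quadriceps (0.73, standard error 0.08, adjusted p = 0.000467). *Fhl1*, a LIM protein of skeletal muscle, was at 6704, 7666 and 9312 in the gastrocnemius and 3502, 4967 and 7215 in the quadriceps (0.58, standard error 0.07, adjusted p = 0.000467). Both groups of signals overlapped, and both genes were higher in 10 of 10 mice.

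The block added 57 genes to the calls. Without it 163 genes were called (2.52%), of which 162 (2.5%) were also called with it. The 57 genes called with the block alone (0.88%) were 27 higher (0.417%) and 30 lower (0.463%) genes, 55 of them with a symbol, at fold changes of 1.303 to 3.84 (median 1.38). In none of them did the signals of the muscles stand apart as groups, while 19 had the same direction in 10 of 10 mice, 27 in 9, 9 in 8 and 2 in 7. Their unpaired adjusted p was between 0.0512 and 0.333, and over 0.1 for 30 of them. Without mouse 141 the unpaired fit called 216 genes, and 55 of the 57 were still called in the paired fit. With each of the other mice left out, the paired fit still called between 39 and 50 of the 57.

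**Figure D3:**
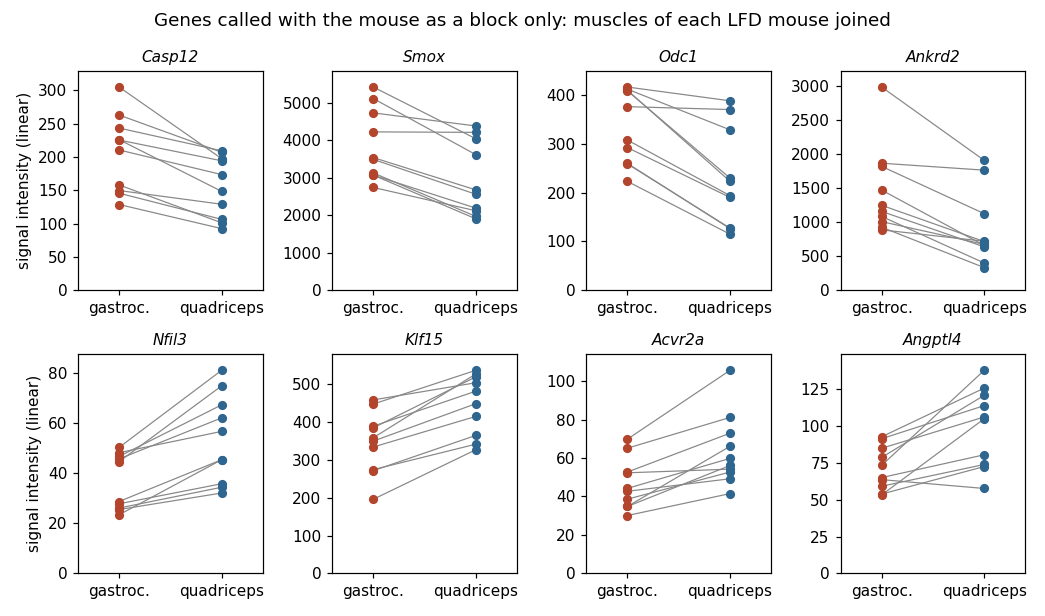
Signal intensity on a linear scale (y axes) in the gastrocnemius and quadriceps of each of the 10 LFD mice, joined by mouse, for 8 genes called with the mouse as a block and not without it. The ranges of the muscles overlap in every panel, and the lines fall to the quadriceps in the upper row, while in the lower row all rise except 1 line of *Angptl4*.

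*Casp12*, a caspase linked to stress of the endoplasmic reticulum, had the smallest paired adjusted p of the added increases. It was at 210.5, 305.0, 226.0, 243.4, 145.6, 128.6, 263.0, 225.4, 158.0 and 149.6 in the gastrocnemius of mice 141, 142, 147, 148, 153, 154, 155, 156, 159 and 160. In the quadriceps of the same mice it was at 173.5, 197.4, 148.3, 209.2, 106.3, 92.4, 207.0, 194.2, 101.1 and 129.0. Mice low in one muscle were low in the other, and every mouse had the higher signal in the gastrocnemius, by 0.21 to 0.64 on the log2 scale. The difference of 0.41 had a standard error of 0.06 in the paired fit, 0.31 times that of the unpaired fit (adjusted p = 0.00102 against 0.221).

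Enzymes and sensors of other pathways were among the added increases. *Smox*, spermine oxidase, was at 2744, 3520 and 5429 (lowest, median and highest) in the gastrocnemius and 1906, 2620 and 4388 in the quadriceps (0.41, standard error 0.07, adjusted p = 0.00215 against 0.188 unpaired). *Odc1*, ornithine decarboxylase, which opens polyamine synthesis, was at 223, 342 and 417 in the gastrocnemius and 115, 208 and 388 in the quadriceps (0.65, standard error 0.11, adjusted p = 0.00253 against 0.085). Both polyamine enzymes were higher in 10 of 10 mice, though by less than 0.03 in mouse 141. *Idh2*, mitochondrial isocitrate dehydrogenase, was at 1342, 1944 and 2344 in the gastrocnemius and 790, 1351 and 1968 in the quadriceps, with 0.45 (standard error 0.08, adjusted p = 0.00425 against 0.117). It was the 1 member of the 21 citric acid cycle genes called at a fold change over 1.3. At an FDR under 0.05, 1 of the 21 was higher and 1 was lower (4.8% each), against 5.17% and 5.54% of all tested genes. The other 19 did not pass, and the median of the list was -0.05.

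Growth-related and matrix genes were added as well. *Tmem100*, a membrane protein known from vessels and nerves, had a log2 difference of 0.51 (standard error 0.08, adjusted p = 0.00151 against 0.0607 unpaired). *Cdk19*, a kinase of the Mediator complex, had 0.81 (standard error 0.12, adjusted p = 0.00188 against 0.0626). *Ccn2*, connective tissue growth factor, and *Postn*, the matrix protein periostin, had 0.64 and 0.74 (adjusted p of 0.018 and 0.0175), each higher in 9 of 10 mice. *Tnfrsf12a*, the TWEAK receptor, was higher in 10 of 10 mice (0.44, adjusted p = 0.029) but lost its call without mouse 142, 148, 154, 156 or 159 (up to 0.0631).

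*Nfil3*, a repressor that takes part in the circadian clock, had the smallest paired adjusted p of the added decreases. Its signal intensity was 48.2, 50.3, 45.7, 46.7, 23.4, 25.5, 44.6, 28.7, 26.1 and 27.8 in the gastrocnemius of mice 141, 142, 147, 148, 153, 154, 155, 156, 159 and 160. In the quadriceps of the same mice it was 56.7, 81.1, 62.1, 67.3, 45.4, 32.1, 74.9, 45.4, 34.4 and 35.8. The gastrocnemius was lower in 10 of 10 mice, by 0.23 to 0.96 on the log2 scale, and mice fell into a higher and a lower set in both muscles alike. The difference was -0.54 (standard error 0.07), at 0.34 times the unpaired standard error (adjusted p = 0.000693 against 0.12).

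*Klf15*, a factor that glucocorticoids induce and that turns on amino acid breakdown, was at 196, 354 and 458 (lowest, median and highest) in the gastrocnemius and 327, 465 and 537 in the quadriceps. It was lower in 10 of 10 mice, by 0.14 to 0.74, with a difference of -0.39 (standard error 0.05, adjusted p = 0.00115 against 0.111 unpaired). Its fold change of 1.31 fell to 1.3 or less without mouse 142 or 153.

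The promoter windows of *Nfil3* (chr13:52980990-52981289, minus strand) and *Klf15* (chr6:90462326-90462625, plus strand) are shown since these were the added decreases with the smallest adjusted p. Capitals again mark CANNTG. Its form CACGTG is the E-box that the clock proteins CLOCK and BMAL1 bind.
Nfil3: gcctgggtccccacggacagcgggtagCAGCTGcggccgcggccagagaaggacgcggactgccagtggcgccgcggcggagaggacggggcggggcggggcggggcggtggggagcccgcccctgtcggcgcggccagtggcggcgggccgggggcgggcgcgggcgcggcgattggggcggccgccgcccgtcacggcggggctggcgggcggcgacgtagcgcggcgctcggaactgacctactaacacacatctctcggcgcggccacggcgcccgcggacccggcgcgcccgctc
Klf15: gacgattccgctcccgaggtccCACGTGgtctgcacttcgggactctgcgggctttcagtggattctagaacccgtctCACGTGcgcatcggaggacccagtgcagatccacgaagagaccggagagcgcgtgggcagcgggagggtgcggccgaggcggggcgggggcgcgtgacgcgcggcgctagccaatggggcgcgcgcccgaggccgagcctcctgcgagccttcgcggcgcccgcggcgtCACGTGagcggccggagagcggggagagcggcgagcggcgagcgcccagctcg
The window of *Nfil3* holds 1 match and no CACGTG, and that of *Klf15* 3 matches, all of them CACGTG. Of the first windows of 40 genes called with the block alone, 23 (57.5%) held CANNTG and 3 (7.5%) CACGTG, against 61.8% and 11.1% of tested genes. TATAAA was in 6 of the 40 and the MEF2 motif in 0, against 7.3% and 0.6% of tested genes.

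*Acvr2a*, a receptor for myostatin and activin, was at 30.1, 43.5 and 69.8 in the gastrocnemius and 41.5, 58.0 and 106 in the quadriceps (-0.46, standard error 0.07, adjusted p = 0.00215 against 0.115 unpaired). It was lower in 10 of 10 mice. *Neu2*, a cytosolic sialidase of muscle, also differed by -0.46 (standard error 0.07, adjusted p = 0.00225 against 0.132). *Angptl4*, an inhibitor of lipoprotein lipase that fasting induces, was at 53.3, 69.3 and 92.8 in the gastrocnemius and 57.7, 106 and 138 in the quadriceps, lower in 9 of 10 mice (-0.45, standard error 0.09, adjusted p = 0.00884 against 0.0897). *Il15*, a cytokine that muscle releases, and *Slc43a1*, a carrier of large neutral amino acids, had -0.59 and -0.75 (adjusted p of 0.0109 and 0.0098).

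In 1 case (0.0154%) the block removed a call. *Il12a*, a subunit of interleukin 12, was at 17.2, 20.4 and 38.8 in the gastrocnemius and 20.2, 34.6 and 47.9 in the quadriceps, with a log2 difference of -0.59 that was called in the unpaired fit (adjusted p = 0.0286) but not in the paired fit (0.0509). The highest gastrocnemius signal was that of mouse 141, which was higher in the gastrocnemius by 0.94 while the other 9 mice were lower, and without this mouse the paired adjusted p was 0.0011.

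The standard error of the difference fell with the block for 5819 of 6479 genes (89.8%). Its ratio to the unpaired standard error had a median of 0.81, with quartiles of 0.69 and 0.91 and a range of 0.11 to 1.22. The 57 added genes had a median ratio of 0.62, and the 162 shared calls of 0.84. A ratio under 0.5 was found in 214 genes (3.3%), of which 45 passed the FDR and 16 were called. Since the calls rest on these standard errors, the ratios of the 57 describe how they came to be called.

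**Figure D4:**
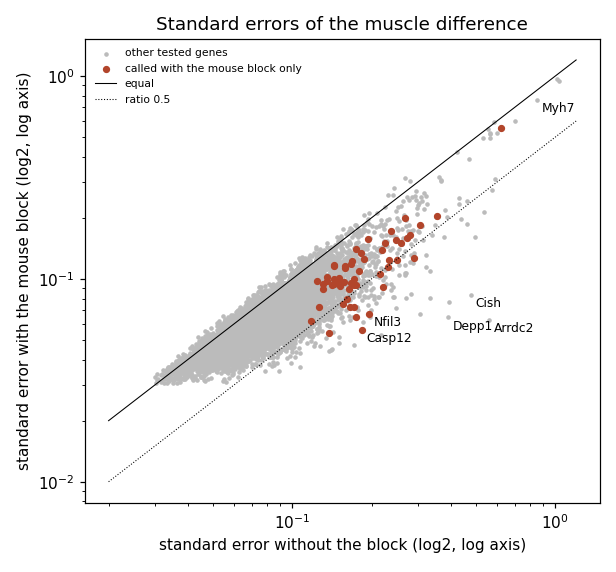
Standard error of the log2 difference between the muscles with the mouse as a block (y axis) against that without it (x axis), both on log axes, for 6479 tested probe sets. Most points lie under the line of equality, the 57 added genes have a median ratio of 0.62, and *Arrdc2* has the lowest ratio, 0.11.

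Some genes with low ratios tracked the mouse and did not pass the test between its muscles. *Arrdc2*, an arrestin-like gene that glucocorticoids induce, ranged from 18.0 to 390 in the gastrocnemius and from 21.2 to 324 in the quadriceps, with within-mouse differences of -0.24 to 0.36 (0.11, standard error 0.06, adjusted p = 0.288). The clock gene *Per1* ranged from 19.2 to 139 in the gastrocnemius and from 20.4 to 158 in the quadriceps (-0.04, standard error 0.08, adjusted p = 0.796). The FOXO target *Depp1*, the STAT5 target *Cish* and the stress-induced factor *Cebpd* had ratios of 0.16, 0.18 and 0.24 and did not pass the test (adjusted p of 0.99, 0.0774 and 0.638). *Cish* had a log2 difference of -0.25 in LFD mice, and was called in HFD mice at -0.465 (limma adjusted p = 0.0035).

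The decreases included genes of glucocorticoid and fasting responses, although the list was not uniform. Of 19 tested members 6 were lower (31.6%) and none was higher, against 5.54% and 5.17% of all tested genes. The median log2 difference was -0.12 against -0.01 over all tested genes. *Gadd45a*, a stress-induced gene, was at 88.7, 106 and 145 (lowest, median and highest) in the gastrocnemius and 128, 183 and 234 in the quadriceps (-0.69, standard error 0.07, adjusted p = 0.000309). *Glul*, glutamine synthetase, was at 857, 1019 and 1259 in the gastrocnemius and 1195, 1263 and 1674 in the quadriceps (-0.33, standard error 0.05, adjusted p = 0.00197). The other members were *Klf15*, *Angptl4*, the stress sensor *Sesn1* (-0.41, adjusted p = 0.00863) and *Tsc22d3*, which encodes GILZ (-0.18, adjusted p = 0.0258), while *Per1*, *Arrdc2* and *Cebpd* of the same list did not pass. *Tsc22d3* lost its FDR without mouse 147, 156, 159 or 160 (adjusted p of up to 0.0643), and the fold change of *Sesn1* was 1.3 or less without mouse 156.

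Genes of muscle growth and atrophy moved both ways. Of 19 tested, 6 were lower and 2 were higher, or 31.6% and 10.5%, against 5.54% and 5.17% of all tested genes. The ubiquitin ligases *Fbxo32* and *Trim63*, which mark muscles that waste, had -0.21 and -0.13 (adjusted p of 0.0325 and 0.0394), and the activin receptors *Acvr2a* and *Acvr2b* -0.46 and -0.29 (adjusted p of 0.00215 and 0.0178). The kinase *Akt1* had 0.27 (adjusted p = 0.034) and the translation repressor *Eif4ebp1* 0.20 (adjusted p = 0.0143). *Fbxo32* lost its FDR without mouse 142, 147, 156 or 160 (adjusted p of up to 0.075). *Trim63* lost it without any mouse other than 141 and 154 (up to 0.0852), and *Akt1* without mouse 142, 147, 148, 153, 156 or 160 (up to 0.0795).

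Part of the adipocyte and fatty acid synthesis genes were lower in the gastrocnemius. Of 10 tested adipocyte markers 5 were lower, 1 was higher (*Car3*, which slow fibers also express) and 4 did not pass. The shares over all tested genes were 5.54% lower and 5.17% higher. The median log2 difference of the adipocyte markers was -0.43. Of 11 genes of fatty acid synthesis 3 were lower (27.3%, against 5.54% of all tested genes) and 8 did not pass. The log2 differences of all 11 ranged from -1.12 to 0.13. *Adipoq*, the hormone adiponectin, was at 289, 584 and 873 in the gastrocnemius and 670, 851 and 1402 in the quadriceps, lower in 10 of 10 mice (-0.74, standard error 0.13, adjusted p = 0.00441). *Scd1*, the stearoyl-CoA desaturase, was at 364, 639 and 1192 in the gastrocnemius and 767, 1041 and 2054 in the quadriceps, lower in 9 of 10 mice (-0.87, standard error 0.14, adjusted p = 0.00236). The summed signal of the adipocyte markers was 15196 to 17503 in the gastrocnemius and 12267 to 17168 in the quadriceps (medians 16272 and 13563), a sum to which *Car3* gave the most.

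Peripheral nerve and tendon markers were higher in part. Of 17 myelin and Schwann cell markers on the array 3 were tested, and all 3 were higher, against 5.17% of all tested genes. *Mbp*, myelin basic protein, was at 77.5, 178 and 214 in the gastrocnemius and 49.7, 60.8 and 72.1 in the quadriceps, without overlap (1.19, standard error 0.17, adjusted p = 0.00145). Its gastrocnemius signal was 77.5 to 87.6 in mice 141, 154, 155 and 156, and 175.6 to 213.9 in the other mice. *Pmp22*, a protein of compact myelin, had 0.65 (standard error 0.12, adjusted p = 0.00523). It differed by at most 0.36 in mice 141, 154, 155 and 156 and by 0.86 to 1.10 in the others. The tetraspanin *Cd9*, which other cells make as well, had 0.20 (adjusted p = 0.034, and up to 0.0813 without mouse 147, 148, 153, 154, 156 or 159). The summed signal of the 3 markers was 964 to 1780 in the gastrocnemius and 775 to 1138 in the quadriceps. Of 19 tendon and matrix genes 5 were higher (26.3%, against 5.17% of all tested genes), led by *Angptl7* (0.80, adjusted p = 0.000738) and *Thbs4* (0.46, adjusted p = 0.00185). The 3 that were lower (15.8%, against 5.54%) were led by *Cilp* (-0.78, adjusted p = 0.00661).

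Cell type markers of other kinds mostly did not pass. Of 13 fibroblast markers 4 were lower (30.8%) and 1 was higher (7.7%), against 5.54% and 5.17% of all tested genes. Their summed signals were 16624 to 20325 in the gastrocnemius and 16719 to 20510.0 in the quadriceps. None of 17 endothelial and 9 macrophage genes passed the paired or the unpaired limma test. At an unadjusted p under 0.05 there were 3 endothelial and 2 macrophage genes in the paired test. Of 4 tested B cell and red cell precursor markers 1 passed as lower, and all 4 had an unadjusted p under 0.05 with log2 differences of -1.35 to -0.65. Their summed signal was 389 to 1087 in the gastrocnemius and 822 to 1473 in the quadriceps (medians 648 and 1085). The 1 that passed was *Ighm*, the immunoglobulin heavy chain of B cells, at 326, 599 and 1053 in the gastrocnemius and 662, 959 and 1245 in the quadriceps (-0.65, standard error 0.10, adjusted p = 0.00151). The part of these cells in the differences of other genes was not tested.

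Some genes of amino acid breakdown were lower. Of 24 tested genes of branched-chain amino acid degradation 5 (20.8%) were lower with the block, against 5.54% of all tested genes, and 2 of them without it. None was higher and 19 did not pass, with a median of -0.15 and a range of -0.39 to 0.08. In limma, 16 of the 24 had an unadjusted p under 0.05 in the paired fit and 12 in the unpaired fit. *Bckdhb*, a subunit of the complex that commits branched-chain keto acids to breakdown, was at 352, 531 and 587 in the gastrocnemius and 489, 617 and 689 in the quadriceps, lower in 10 of 10 mice (-0.25, standard error 0.05, adjusted p = 0.00767 against 0.0897 unpaired). *Dbt*, another subunit of that complex, was called at -0.39 (adjusted p = 0.0181) and fell to a fold change of 1.3 or less without mouse 148, 153 or 159.

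*Ddah1*, which degrades asymmetric dimethylarginine, was at 12.5, 20.2 and 34.1 in the gastrocnemius and 26.5, 64.4 and 93.7 in the quadriceps (-1.50, standard error 0.18, adjusted p = 0.00057). *Gpx3*, a secreted glutathione peroxidase, was at 1058, 1677 and 2415 in the gastrocnemius and 2233, 2755 and 3555 in the quadriceps (-0.77, standard error 0.09, adjusted p = 0.000506). Both were lower in 10 of 10 mice and overlapped slightly. The imprinted gene *Peg3* was at 17.9, 82.2 and 104 in the gastrocnemius and 83.4, 211 and 276 in the quadriceps, lower in 10 of 10 mice (-1.36, standard error 0.17), with an adjusted p of 0.000703 in the paired and 0.00519 in the unpaired fit.

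**Figure D5:**
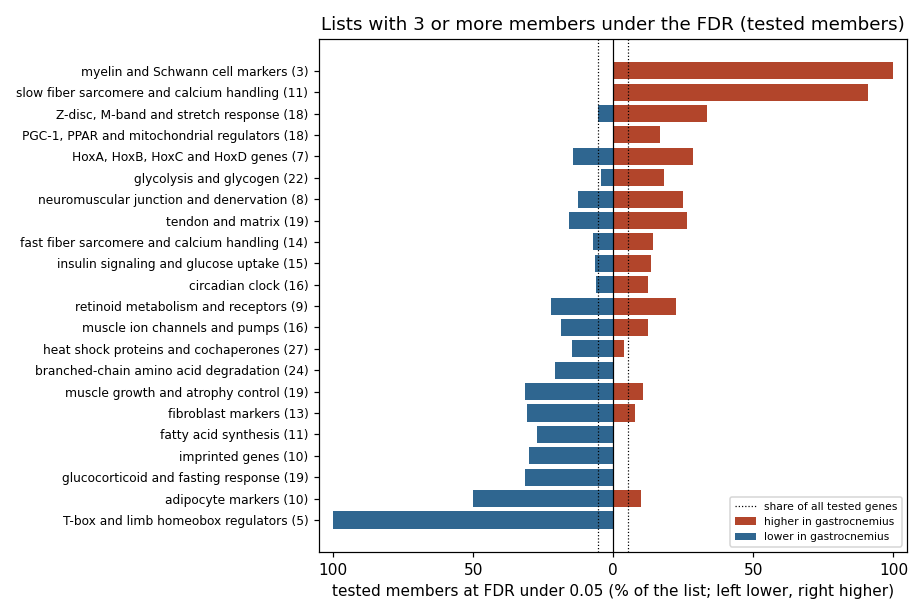
Share of the tested members of a list that passed an FDR of 0.05 in the paired fit (x axis, percent; bars to the right are higher and bars to the left lower in the gastrocnemius), for the 22 lists with 3 or more such members, with the number of tested members in brackets and dotted lines at the shares of all tested genes (5.17% higher, 5.54% lower). Slow fiber and myelin genes stand at the upper end and T-box and limb homeobox regulators at the lower end.

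The HFD mice gave a separate set of animals in which to look at the same genes. There 233 of 6479 genes were called with the block (3.6%). Of the 162 genes called in LFD mice with and without the block, 135 (83.3%) were called in HFD mice and 161 had the same direction. Of the 57 genes added by the block, 23 (40.4%) were called and 54 had the same direction. Of the 475 small differences, 116 (24.4%) passed the FDR in HFD mice, where 6.31% of all tested genes did, and 456 had the same direction.

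Single added genes held to different degrees. *Casp12* had a log2 difference of 0.41 in LFD and 0.41 in HFD mice (HFD adjusted p = 0.0065), *Klf15* -0.39 and -0.35 (0.0024), *Odc1* 0.65 and 0.69 (0.00013), and *Ankrd2* 0.81 and 1.29 (0.0047). *Nfil3* had -0.54 and -0.45 and did not pass in HFD mice (adjusted p = 0.12), and *Acvr2a* had -0.46 and -0.17 (adjusted p = 0.79). A direct test of the difference between diets, limma on the 20 within-mouse differences, found 0 of 6479 genes at an FDR under 0.05 (0%) and 203 genes (3.13%) at an unadjusted p under 0.05. The lowest adjusted p was 0.848, so that no gene, *Acvr2a* and *Nfil3* included, was shown to differ between the diets in its muscle difference.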

How the data were processed

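RNA of 2 muscles of each mouse had been hybridized to Affymetrix mouse genome arrays. Signals were computed by the authors with quantile normalization and GC-RMA (version not given in the sources used here) over probes reassigned to Entrez genes, and intensities were deposited without a log2 transformation. Names came from the platform annotation updated through RefSeq (GRCm38.p6), with 15752 of 16475 probe sets named there and 64 controls left out.

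Log2 signals of the 20 LFD arrays were fitted with limma 3.58.1 in R 4.3.3, with the mouse as a fixed block, and adjusted by Benjamini-Hochberg over 6479 probe sets. Calls needed a fold change over 1.3 with an FDR under 0.05. Log2 differences are gastrocnemius minus quadriceps, fold changes are ratios of geometric means, and adjusted p-values without another name come from this fit. The labels give both muscles of a mouse 1 number. Deviations from the group means correlated within mice at a median of 0.39 (-0.07 to 0.63) and between mice at -0.05. P-values of the paired fit rest on the spread of the within-mouse difference across mice, and not on the spread of levels between mice.

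Named genes were the 6 largest called changes per direction in at least 9 of 10 mice with a mean signal over 20 in both muscles, the 5 per direction with the smallest adjusted p among those alike in 10 of 10 mice, the 6 per direction called with the block alone, those called without it alone, up to 3 members per list with an FDR under 0.05, the 5 called genes with the highest mean signal over the 40 arrays, and *Dkk3*, *Hoxd8*, *Hoxd9* and *Tbx1*. *Acta1*, *Acvr2b*, *Adipoq*, *Angptl4*, *Arrdc2*, *Casq2*, *Ccn2*, *Cebpd*, *Cish*, *Ckm*, *Dbt*, *Depp1*, *Eya1*, *Fbxo32*, *Il15*, *Myh1*, *Myh4*, *Myl3*, *Per1*, *Postn*, *S100a9*, *Sesn1*, *Six4*, *Slc43a1*, *Tnfrsf12a*, *Tnnc1*, *Trim63* and *Tsc22d3* were named after their values were seen. The members and gene lists were chosen with earlier results of these data known. Alternatives were other filters, floors, normalizations, variance models, blocks, thresholds and each mouse left out. The fits were tested on simulated data. Python 3.11.15 with numpy, pandas and matplotlib summarized the fits and drew the figures.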

Additional observations from a re-analysis of the deposited data

Results flagged for a closer look

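In 27 of 262 groups of 10 arrays (131 genes examined in each muscle), the highest or lowest array lay farther from its nearest neighbor than Dixon's 95% limit allows, a limit that chance passes in about 1 of 20 groups. Of these, 14 were arrays of mouse 141. In its gastrocnemius, *Tbx1* (205.3), *Dkk3* (70.4), *Il12a* (38.8) and *Nudt4* (1243) were highest and *Hoxd8* (362.3) was lowest. In its quadriceps, *Hoxd8* (346.0), *Hoxd9* (99.0), *Aldh1a2* (47.4), *Mss51* (3157) and *Serpinb6a* (3780) were highest, while *H2-Eb1* (54.7), *Map1lc3b* (1297), *Myh1* (9063) and *Sesn1* (160.2) were lowest.

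In the gastrocnemius of mouse 142, *Acta1* (25309), *Ckm* (18698), *Bckdhb* (352.2) and *Acadsb* (207.6) were lowest and *Akt1* (115.2) was highest. Mouse 148 had the highest *Irx3* (95.4) and *Tnfrsf12a* (465.4) in the gastrocnemius and the lowest *Cry2* (234.5) in the quadriceps. The gastrocnemius of mouse 156 was lowest for *Impact* (34.8) and *Peg3* (17.9), and that of mouse 153 was highest for *Tpm1* (140.0). The quadriceps of mouse 154 was highest for *Mybph* (2122) and that of mouse 159 for *Fasn* (642.1). No cause of these single arrays was tested.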

How the results depend on the processing

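The count of 219 called genes was 163 with no replicate block and 225 with the mouse as a random replicate block. It was 303 with no filter on signal and 188 with a mean signal over 40. It was 194 to 269 with each mouse left out, with 111 to 142 genes higher and 82 to 127 lower. The threshold itself moved it most, to 394 (206 higher, 188 lower) at a fold change over 1.2, 100 (53 higher, 47 lower) at 1.5, and 694 (335 higher, 359 lower) with no fold threshold. The count of genes called with the block alone, recomputed after seeing the data, was 43 with array weights and 82 with no filter, and 54 to 82 with a mouse left out. Of the 131 genes examined singly, 118 had an FDR under 0.05, which 97 kept with each mouse left out and 21 did not. No gene differed between the diets at an FDR under 0.05 in limma under any filter, floor, normalization or variance model tried, where 160 to 612 had an unadjusted p under 0.05. Signals near the array median of about 9 limit the sizes of *Dkk3*, *Hoxd9*, *S100a9*, *Tnni1*, *Tnnt1*, *Tnnc1* and *Myh7*.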
